A study of Saccharomyces cerevisiae with 328 samples.

Results

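Endosome to vacuole delivery deletions are the budding yeast (Saccharomyces cerevisiae) strains whose labels name VPS8, VPS9, VPS38, VPS27, VPS24, MON1, VAM7 or VMA21. They were chosen by the deleted gene, not by a measured value, and are 8 of 328 strains. Each strain is labelled with 1 deleted gene and has 1 library of polyA RNA from cells in exponential growth. Values are given as a log2 ratio of each gene to the wild type strain. The 8 strains were the replicates of the class and were compared with the other 320 deletion strains. They were also compared with 6 of those 320, labelled for genes of recycling from endosome to Golgi (VPS29, VPS53, PEP8, RCY1, VPS51 and TLG2). No dose, age or second allele is in the labels, and the parent strain is not given in the sources used here. Each strain is 1 library, so independent clones of a deletion were not measured, and p-values are over strains.

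Cargo bound for the yeast vacuole passes from the Golgi or the plasma membrane through endosomes. The vacuole is acidic, degrades proteins and stores amino acids, phosphate and metals, so the pathway sits close to nutrient supply. Vps9 activates the endosomal GTPase Vps21, Vps8 is a subunit of the CORVET tether, and Vps38 belongs to the lipid kinase complex that makes phosphatidylinositol 3-phosphate on endosomes. Vps27 starts and Vps24 completes the ESCRT pathway, which sorts ubiquitinated membrane proteins such as permeases into vesicles inside the endosome. Mon1 helps activate Ypt7, the GTPase of the vacuole membrane, and Vam7 is a SNARE of vacuole fusion. Vma21 assembles the proton pump that acidifies the vacuole.

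No gene passed the test across all 8 strains when they were set against all other deletions, and the 5 genes nearest to it were QDR2, CAR2, LEU1, MMP1 and MET14. LEU1, encoding isopropylmalate isomerase of leucine synthesis, lay below the mean of its library group in 8 of 8 strains and fell by 0.65 once those groups were a term of the fit. In the strains labelled VPS8, VPS9, VPS38 and VPS27, CAR2 (ornithine transaminase, of arginine degradation) was high. ARG1 (argininosuccinate synthase, of arginine synthesis) was low in the same strains, but not all other arginine genes followed. The strain labelled VMA21 had ARG1 high. The library labelled VPS24 stood apart from the other 7, with high phosphate genes and low a-cell genes.

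The deleted gene was looked at in its own library first. VPS9, VPS38 and VPS27 had no value in their own libraries and a value in 90.8% to 97.2% of the other strains. VPS8 was empty as well, but it had a value in only 72.2% of the others. VMA21 was at -2.51 in its own library, the lowest of 328, and the other strains lay between -1.33 and 1.25. The row of VAM7 held no value in any strain, so this strain could not be checked.

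In 2 libraries the check went against the label. MON1 was at -0.71 in the library labelled MON1, where the median of its library group was -0.79. VPS24 was at 0.87 in the library labelled VPS24, 315th from the lowest of 328, where the median of its library group was 0.01. In the values below, MON1 and VPS24 as names of samples stand only for the libraries so labelled, and the main class results are given with and without them. Over the series, 59 of the strains that could be checked had a deleted gene that was neither empty nor more than 0.5 below the median of the library group.

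Other genes were very low in these 2 libraries. GNP1, encoding a glutamine permease, was at -2.60 in the library labelled MON1, the lowest of 328. The library labelled GNP1 came next at -2.53, and the third lowest was at -1.61. The profile of the library labelled MON1 was most like that of the library labelled GNP1 (r = 0.54 over 2142 genes around library-group means), and its next likest strain had r = 0.33. In the library labelled GNP1, MON1 itself was at -1.51, 12th from the lowest of 317. In the library labelled VPS24, DEF1 was at -3.11, the lowest of 328, and the next lowest strain was at -1.54. DEF1 (chromosome XI, 336537 to 338753), whose product acts in degradation of stalled RNA polymerase II, lies 13 open reading frames from VPS24 (chromosome XI, 360143 to 360817).

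The lowest values of VPS24 were found elsewhere. VPS24 was at -2.93 in the library labelled YAF9 and at -2.55 in the library labelled ASC1, and the third lowest strain was at -0.85. ASC1 was at -2.51 in its own library, the lowest of 328, but YAF9 was at -0.05 in its own, near its library-group median of 0.09. The library labelled YAF9, which stayed among the 320 other deletions, had ARG1 at -2.77, the second lowest of 327, and CAR2 at 0.47, the ninth highest of 328. Its MMP1 value, a permease gene described below, was -1.82, 4th from the lowest of 327. The library labelled ASC1 had VTC3 at 3.07, the second highest of 328 after the library labelled VPS24. Its AGA2 value, an a-cell gene described below, was 1.51, the highest of 328, whereas AGA2 was lowest in the library labelled VPS24. Around library-group means, r between the profiles of these 2 libraries was 0.06. Both libraries were singled out after their values were seen, and whether labels were exchanged was not tested.

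**Figure D1:**
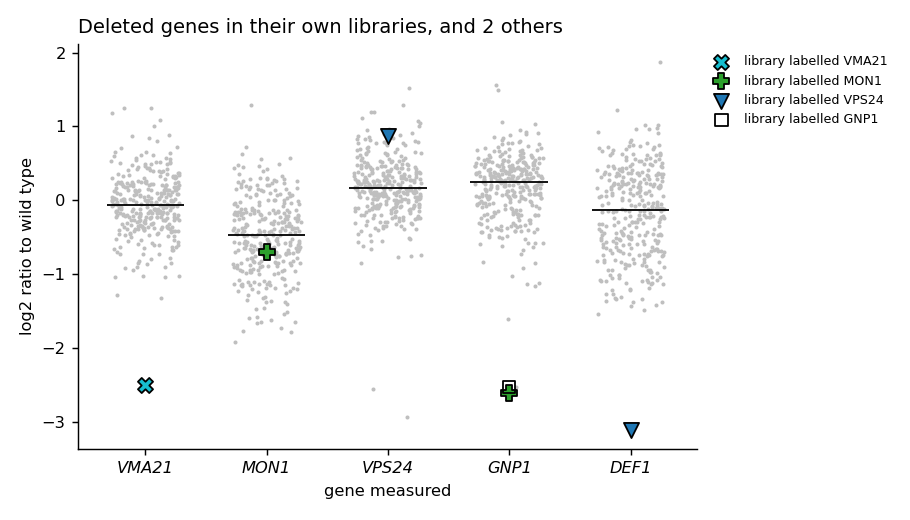
Log2 ratio to wild type (vertical axis) of 3 deleted genes and of GNP1 and DEF1 (horizontal axis) in every strain with a value. Grey points are other strains, the black line is their median, and large symbols are the named libraries. VMA21 was lowest in its own library at -2.51, MON1 and VPS24 were not low in theirs, and GNP1 and DEF1 were lowest in the libraries labelled MON1 and VPS24.

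The libraries were placed in 4 groups from their own values with a Gaussian mixture, holding 80, 73, 96 and 79 strains; the labels name no batch, and what the groups are is not known. They took 38.99% of the variance over genes with a value in every strain. Group 1 holds the strains labelled VPS8, VPS24 and VAM7, group 3 that labelled VPS38, and group 4 those labelled VPS9, VPS27, MON1 and VMA21. Differences from the mean of the other deletions in the same library group, called library-group differences below, are therefore given beside the pooled values. Missing genes ranged from 3.17% to 5.83% over the 8 libraries. Depth is unknown, because only ratios were deposited. No chromosome of the 8 libraries was shifted by over 0.4 from the others; the furthest was chromosome III in the library labelled VPS24, at -0.40.

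Against all 320 other deletions, 0 of 4499 genes were called by limma at an adjusted p under 0.05 (0% of genes tested), and 319 had an unadjusted p under 0.05. With moderated variances that follow a trend and are robust, the count was also 0. With the 4 library groups as a term, 1 gene was called (0.0222%), LEU1, and 6.40% of genes had an unadjusted p under 0.05. Without the libraries labelled MON1 and VPS24, 0 were called with or without that term (6.22% and 6.73% of genes had an unadjusted p under 0.05, without and with it). The fit holds 1 spread per gene over all strains, whereas the class can spread more: CAR2 had an SD of 1.10 within the 8 strains and 0.67 in the others.

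LEU1 (YGL009C, chromosome VII, 476313 to 478652) had a log2 ratio of 0.43 in VPS8, 0.11 in VPS9, -0.07 in VPS38, 0.27 in VPS27, 0.68 in VPS24, -0.02 in MON1, 0.53 in VAM7 and 0.35 in VMA21. The mean was 0.29 ± 0.27 (SD, n = 8), against 0.94 ± 0.47 (SD, n = 320) in the other deletions, which spread from -0.22 to 2.97. All 8 lay below the median of the others, 0.93, but inside their range. The pooled difference was -0.65 ± 0.17 (SE; limma adjusted p = 0.152), and with library groups as a term LEU1 fell by 0.65 ± 0.14 (SE; limma adjusted p = 0.0244). Within the library groups the mean differences were -0.72 in group 1, -0.72 in group 3 and -0.58 in group 4. With the term, leaving out 1 strain at a time kept the difference between -0.68 and -0.62, while the limma adjusted p ran from 0.0143 (without VMA21) to 0.130 (without VPS38). It passed without VMA21, VPS24 or VPS27 and missed without each of the other 5. Without the libraries labelled MON1 and VPS24 together, the difference was -0.64 ± 0.16 (SE; limma adjusted p = 0.106). With each strain also centred on its median, LEU1 was at -0.63 (limma adjusted p = 0.0584) and no gene was called.

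Several, but not all, other genes regulated with LEU1 by the activator Leu3, as is known in yeast, lay lower as well but did not pass the test. OAC1, encoding a mitochondrial carrier that exports isopropylmalate, was below its library-group mean in 7 of 8 strains, from -0.95 in VAM7 to 0.04 in VMA21 (library-term difference -0.53 ± 0.15, SE; limma adjusted p = 0.202). Without the libraries labelled MON1 and VPS24 that difference was -0.54 (limma adjusted p = 0.377). BAT1, the mitochondrial branched-chain transaminase, was below in 8 of 8 strains, by library-group differences from -0.52 to -0.08. LEU4, LEU9 and ILV2 were below in 7 of 8 strains each, and ILV5 in 4 of 8. ILV3, also a branched-chain gene, was below in 5 of 8 strains and reached 0.61 in VAM7. These genes were picked after LEU1 was seen.

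The promoters of LEU1 and BAT1 are shown because they hold CCGG, any 2 bases and CCGG again, known as the Leu3 site. The windows are 150 bases long and begin 250 bases before the start codon in RefSeq's R64 assembly; the submitters' build is not given in the sources used here, and names alone were matched. LEU1 is read on the minus strand of chrVII:478753-478902 and BAT1 on the plus strand of chrVIII:517282-517431, 5′ to 3′, with the match in capitals.
LEU1: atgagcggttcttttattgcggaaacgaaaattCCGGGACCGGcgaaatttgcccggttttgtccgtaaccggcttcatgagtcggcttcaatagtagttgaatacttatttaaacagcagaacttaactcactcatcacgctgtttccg
BAT1: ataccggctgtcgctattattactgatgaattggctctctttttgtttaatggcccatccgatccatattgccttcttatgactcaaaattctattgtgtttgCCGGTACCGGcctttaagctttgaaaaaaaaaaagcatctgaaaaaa
The letters were searched on both strands and stand in 6 of 6001 such windows of protein-coding genes (0.1%). The windows of OAC1, LEU4, LEU9 and ILV2 do not hold them.

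Most sulfur and methionine genes had a negative difference, without passing the test. MET14 (YKL001C, chromosome XI, 438777 to 439385), encoding adenylylsulfate kinase of sulfate assimilation, was at 0.29 in VPS8, -0.62 in VPS9, 0.49 in VPS38, -0.50 in VPS27, -0.70 in VPS24, 0.10 in MON1, 0.96 in VAM7 and 1.53 in VMA21. The others had a median of 1.23, from -1.45 to 4.07, so that only VMA21 lay above it. The difference was -1.03 ± 0.27 (SE; limma adjusted p = 0.161), and -0.86 (adjusted p = 0.704) without the libraries labelled MON1 and VPS24. With library groups as a term and VMA21 left out, 4 genes passed, all of them lower: LEU1, MET14, MXR1 and QDR2. MXR1 reduces oxidised methionine and QDR2 is a plasma membrane exporter. In that fit the differences were -1.23 for MET14, -0.64 for MXR1 and -0.61 for QDR2.

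Of 23 sulfur and methionine genes, 17 were tested and 0 were called. A negative difference was found for 13 and a positive one for 4, against 1950 negative of 4499 over all genes. The median was -0.23, against 0.03 over all genes. With library groups as a term 15 were negative and the median was -0.22, against 2546 of 4499 and -0.02 over all genes. Leaving out the libraries labelled MON1 and VPS24, 11 of 17 were negative with a median of -0.21 (2094 of 4499 and 0.02 over all genes). The list's median library-group difference was lowest in VPS24 at -0.59 and highest in VMA21 at 0.20. MET14's promoter is printed with those of the phosphate genes below, whose motif it shares.

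MMP1 (YLL061W, chromosome XII, 17956 to 19707), a high affinity permease for S-methylmethionine, was at -1.26 in VPS8, -1.69 in VPS9, -0.77 in VPS38 and -1.30 in VPS27. It was at 0.08 in VPS24, -0.50 in MON1, 0.05 in VAM7 and -0.30 in VMA21, and the others had a median of 0.01 (-2.08 to 1.49). The first 4 strains were among the 24 lowest of 327, and VPS24 and VAM7 lay near the middle. The difference was -0.70 ± 0.18 (SE; limma adjusted p = 0.152), and -0.87 (adjusted p = 0.0890) without the libraries labelled MON1 and VPS24. SAM3, the S-adenosylmethionine permease, had library-group differences of -0.47, -0.72 and -0.70 in VPS8, VPS9 and VPS27, -0.55 and -0.60 in VPS24 and VAM7, and 0.05 to 0.14 in the other 3.

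QDR2 (YIL121W, chromosome IX, 132244 to 133872) had the smallest p of all genes. Its log2 ratio ran from -0.86 in VAM7 to -0.04 in VMA21, and the other deletions had a median of 0.18 (-1.26 to 1.71). All 8 strains lay below that median, and the difference was -0.56 ± 0.13 (SE; limma adjusted p = 0.142). It was -0.57 (limma adjusted p = 0.303) without the libraries labelled MON1 and VPS24. Further down the 10 smallest p-values were MXR1 (-0.48), YLL044W (-1.18), SHR3 (-0.37), ERF2 (0.60) and SPO24 (-0.58), each with a limma adjusted p of 0.551. Shr3 is a chaperone that amino acid permeases need to leave the endoplasmic reticulum, and Erf2 is part of a palmitoyltransferase. YLL044W, which is not annotated in the reference used here, moved from -1.18 to -0.50 with library groups as a term.

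CAR2, of arginine degradation, was high in 4 of the 8 strains. CAR2 (YLR438W, chromosome XII, 1012501 to 1013775) was at 1.66 in VPS8, 1.04 in VPS9, 0.78 in VPS38 and 0.35 in VPS27, the 1st, 3rd, 5th and 15th highest of 328. It was at -1.22 in VPS24, -0.28 in MON1, -1.44 in VAM7 and -0.58 in VMA21, and the other deletions had a median of -0.89 (-2.92 to 1.12). The first 4 strains thus lay near or past the top of the others, and VPS24 and VAM7 lay below their median. The class difference was 0.94 ± 0.24 (SE; limma adjusted p = 0.152). It was 1.21 without the libraries labelled MON1 and VPS24 (adjusted p = 0.0808) and passed only without VAM7 (1.16; limma adjusted p = 0.0414) or, with library groups as a term, without VPS24 (1.00; adjusted p = 0.0482). Within library groups the mean difference was 0.63 in group 1, 1.38 in group 3 and 0.87 in group 4.

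DUR1,2 (YBR208C in the reference), encoding urea amidolyase, was at 2.26 in VPS8, 1.05 in VPS9, 0.30 in VPS38, 0.75 in VPS27, -0.28 in VPS24, 0.71 in MON1, -0.44 in VAM7 and -0.34 in VMA21. The others had a median of -0.03 (-1.54 to 3.10), and the class difference was 0.52 ± 0.20 (SE; limma adjusted p = 0.645), or 0.61 (adjusted p = 0.704) without the libraries labelled MON1 and VPS24. CAR1, encoding arginase, was high in VPS8 (0.91), MON1 (0.55) and VPS9 (0.53), the 3rd, 9th and 10th highest of 328, and at -1.07 in VPS38, near its library-group mean (difference -0.06). Arginase splits arginine into ornithine, which Car2 uses, and urea, which Dur1,2 uses, and VPS8 was high for all 3. PUT2, which makes glutamate from the pyrroline carboxylate that arginine and proline give, had library-group differences from -0.41 in VPS9 to 0.77 in VPS27.

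Of the genes that make arginine, ARG1 was low in the same 4 strains. ARG1 (YOL058W, chromosome XV, 219211 to 220473) was at -2.90 in VPS8, -1.62 in VPS9, -1.80 in VPS38 and -2.36 in VPS27, the 1st, 25th, 15th and 4th lowest of 327. It was at -0.79 in MON1, -0.19 in VAM7 and 1.20 in VMA21, had no value in VPS24, and had a median of -0.66 in the others (-2.77 to 3.72). ARG5,6, encoding acetylglutamate kinase and the reductase that follows it, was at -1.66 in VPS27, -1.64 in VPS38, -1.17 in MON1, -0.95 in VPS9 and -0.32 in VPS8. Its value in VPS27 was the lowest of 326, and it was high in VAM7 (0.80) and VMA21 (1.06). The class differences were -0.64 ± 0.33 (SE; limma adjusted p = 0.711) for ARG1 and -0.52 ± 0.21 (SE; limma adjusted p = 0.645) for ARG5,6. They were -0.70 (limma adjusted p = 0.797) and -0.49 (0.778) without the libraries labelled MON1 and VPS24. Other genes of the pathway were not low in all 4 strains: ARG2 was at 0.04 in VPS8 (median of the others -0.12), ARG4 at 0.26 in VPS8 and 0.20 in VPS27 (median 0.18), and CPA1 at 0.18 in VPS9 (median -0.23).

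CPA1 acts in carbamoyl phosphate synthesis for the arginine pathway. CPA1 was at -2.14 in VPS38, the lowest of 328, and at 1.06 in VMA21, the 11th highest. ARG4, argininosuccinate lyase, was at 1.13 in VMA21 (15th highest) and -0.44 in VPS38 (3rd lowest). VMA21 was thus high for ARG1, ARG4, ARG5,6, ARG7 and CPA1, and its ARG2 value of -0.89 was low. The arginine genes were brought together after their values were seen, and no test was made of them as a group.

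**Figure D2:**
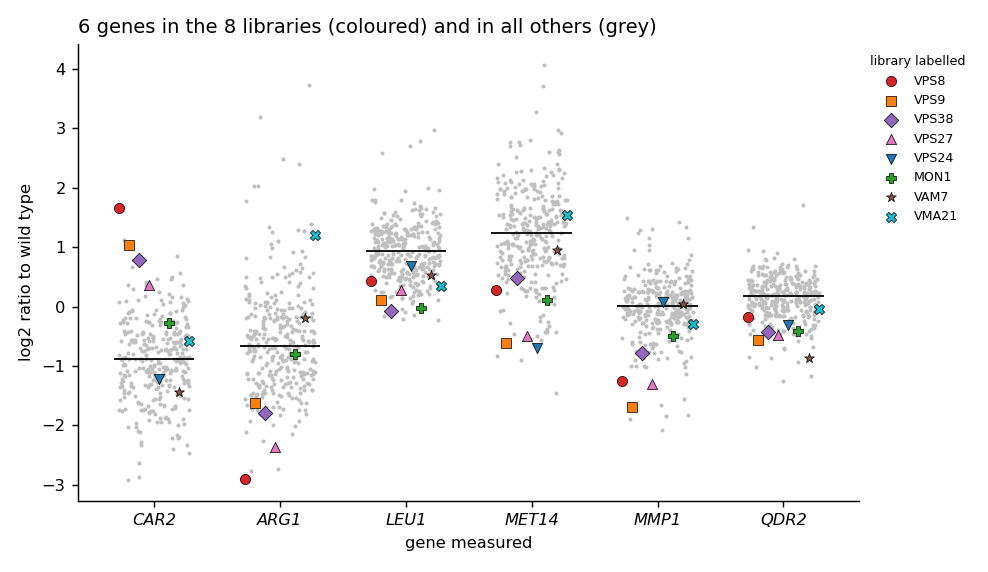
Log2 ratio to wild type (vertical axis) of 6 genes (horizontal axis) in the 8 class libraries (coloured symbols) and in the other deletions (grey points; black line, median). CAR2 was high and ARG1 low in VPS8, VPS9, VPS38 and VPS27, whereas LEU1 and QDR2 lay below the median of the others in all 8.

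**Figure D3:**
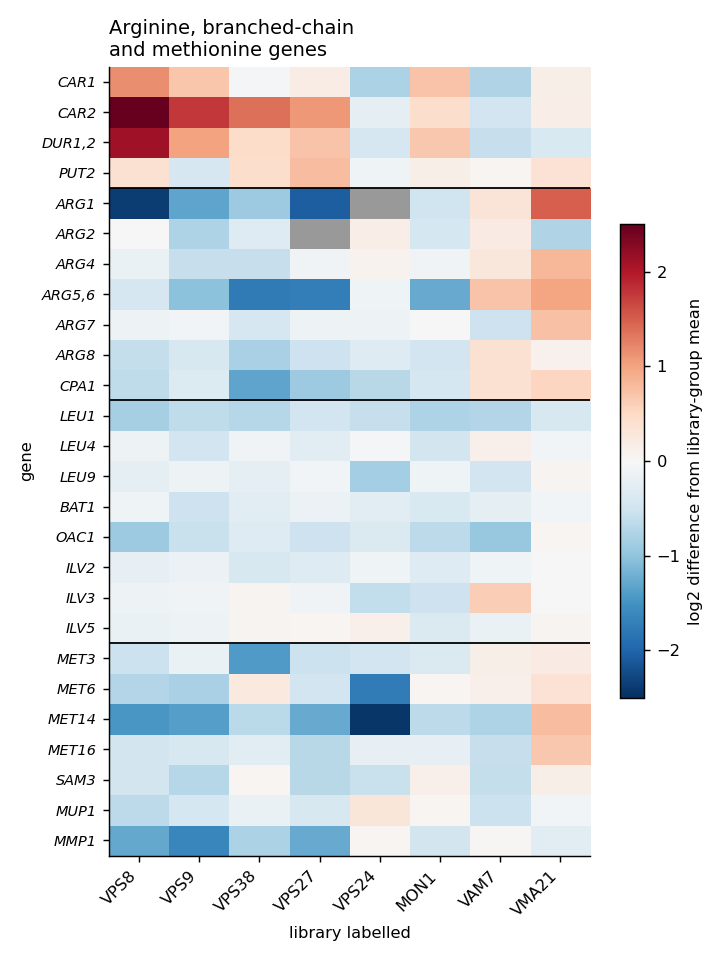
Library-group differences (colour, log2) of 26 genes (rows) in the 8 libraries (columns); black lines separate arginine use, arginine synthesis, branched-chain and methionine genes, and grey cells have no value. CAR2 reached 2.62 in VPS8, MET14 was at -2.43 in VPS24, and the arginine synthesis rows were mostly positive in VMA21.

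Over broader lists the class showed no called gene but LEU1. Of 63 amino acid biosynthesis genes 61 were tested; 1, LEU1, was called with library groups as a term, and 43 of 61 then had a negative difference (median -0.07), against 2546 of 4499 over all genes (median -0.02). Without the term the list was split, with 32 positive and 29 negative (median 0.01). Without the libraries labelled MON1 and VPS24, LEU1 was not called, and 42 of 61 were negative with the term and 31 without it. Over all genes these counts were 2525 and 2094 of 4499. By strain, the list's median library-group difference was between -0.29 and -0.15 in VPS9, VPS38, VPS27, VPS24 and MON1 and at 0.14 and 0.18 in VAM7 and VMA21. Of 10 nitrogen catabolite genes tested, 0 were called and 7 had a positive difference, against 2549 of 4499 over all genes. Their median was 0.14 (0.03 over all genes), and 0.25 without the libraries labelled MON1 and VPS24 (0.02 over all genes). The list holds CAR1, CAR2 and DUR1,2. Of 42 stress-induced genes tested 0 were called, and 39 had a positive difference (median 0.28), against 2549 of 4499 over all genes. With library groups as a term 37 were positive (median 0.22), against 1953 of 4499 over all genes. Among the 6 strains other than those labelled MON1 and VPS24, 41 were positive in the fit without the term (median 0.34). Over all genes 2405 of 4499 were positive in that fit.

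No gene of the vacuole or of endosomal sorting was called. None of the 19 tested genes of the vacuolar ATPase was called, with a median difference of -0.08, nor of the 19 of HOPS, CORVET and vacuole fusion (0.00), the 16 of ESCRT (0.08), the 6 of phosphatidylinositol 3-kinase (0.17) or the 19 of retromer, GARP and recycling (0.09). The median over all genes was 0.03. With the libraries labelled MON1 and VPS24 left out these 5 medians lay between -0.07 and 0.06. Of 12 vacuolar hydrolase genes none was called, and the median difference was 0.11. PRB1, vacuolar protease B, was above its library-group mean in 8 of 8 strains (0.07 to 0.85), and APE1, an aminopeptidase delivered from the cytoplasm, in 7 of 8 (-0.32 to 1.11). VPH1, a membrane subunit of the proton pump, was at -1.55 in VPS38, the lowest of 328, and at -1.22 in VMA21, the 11th lowest.

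Each strain was next described by itself, by its genes at least 2-fold from the library-group mean. These counts have no replicate check. MON1 had the fewest, 21 of 4491 (0.468%), then VPS27 with 36 (0.805%), VPS9 with 64 (1.44%), VMA21 with 77 (1.73%) and VPS8 with 81 (1.81%). The share was 4.02% in VPS38, 4.16% in VAM7 and 5.23% in VPS24. Genes below outnumbered genes above in every library but VPS8, which had 58 above and 23 below. VPS9 had 9 above and 55 below, VMA21 13 and 64, MON1 6 and 15, VPS27 11 and 25 (0.559% below), and VPS24 2.33% of genes above and 2.9% below. VPS38 had 20 above and 3.56% of genes below, and VAM7 50 above and 3.03% below. The size of response, the SD over genes of a strain around the gene means of all other strains, was 0.474 ± 0.081 (SD, n = 8) in the class and 0.466 ± 0.104 (SD, n = 320) in the other deletions. The difference was 0.00759 in a two-sided permutation test with 100000 resamples (p = 0.771). It turned negative without VPS24 (-0.00101) or VPS38 (-0.0126), and was 0.0197 (p = 0.583) without the libraries labelled MON1 and VPS24.

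Stress genes stood furthest above the library group in VPS8. HSP26, a small heat shock protein gene, was at 2.94 there, the 7th highest of 328, and EGO4 and RGI1 were at 4.52 and 3.65, each the 3rd highest. Of 42 stress-induced genes, 17 lay at least 2-fold above the library-group mean in VPS8 (1.3% of all genes did), 4 in VPS38 and in VPS24, 1 in VPS27 and in VAM7, and 0 in the other 3. Counted by sign alone, 39 of 42 lay above it in VPS8, 36 in VPS27, 33 in VPS38 and 13 to 28 in the other 5. Over all genes, 2414 of 4468 lay above it in VPS8, 2324 of 4473 in VPS27 and 1759 of 4406 in VPS38. Genes low in VPS8 besides ARG1 were SIT1, a siderophore transporter (-2.02), SNM1, a subunit of RNase MRP (-1.64), and HXT2, a glucose transporter (-1.81).

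VPS9 had low MMP1 and low ZRT3, a zinc exporter of the vacuole (-1.67, the second lowest of 328), and also low CBP3, an assembly factor of cytochrome b (-2.11, the lowest of 320), and YLR036C (-1.03). Its high genes besides CAR2 were PUT7 (1.50, the highest of 319), OTU2 (1.02) and VPS3 (1.84, 4th highest of 318), which encodes a CORVET subunit. VPS27 shared low ARG1 with VPS8 and had low MXR1 (-0.60) and SPO24 (-1.60), each second lowest of 328. Its high genes were HSP26 (1.72, 23rd highest), HXT4 (1.14, 26th), YLR154C-G (1.97, 36th) and VPS73 (1.08, 4th). Their library-group differences were 1.09 to 1.24.

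VPS38 had a few high zinc genes. ZRT1, the high affinity zinc importer, was at 5.88 (22nd highest of 328), and ZAP1, the zinc-responsive activator, at 1.49; with ZRT3, 3 of 10 zinc genes lay at least 2-fold above the library group, against 0.454% of all genes. Over the list, 4 of 10 lay above and 6 below (median -0.17). ZRT1 varies widely in this series, from 0.14 to 7.12 in the other deletions. GSY2, glycogen synthase, and GPH1, glycogen phosphorylase, were at 3.50 and 3.36, the 4th and 7th highest. HOS2, a histone deacetylase (-2.93), KCC4, a septin-associated kinase (-2.64), and BRN1, a condensin subunit (-0.18), were each the lowest of all strains, and ADA2, of the SAGA complex, was second lowest (-1.72).

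VAM7 had ZRT1 at the other end, at 0.09, the lowest of 328. It was also lowest of all strains for SDD4 (-2.21; next lowest -1.59) and SMC3, of cohesin (-1.72), and 3rd lowest for NIP1, of translation initiation factor eIF3 (-2.22). ADE17, of purine synthesis, was at -0.02, the highest of 326, and the next strain was at -0.18. SPR6 (0.86), YCX1 (1.66) and AIM4 (1.13) followed among its high genes.

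VMA21 had high iron genes beside its high arginine synthesis genes. ARN2, a siderophore transporter, was at 0.53 (6th highest), ENB1, another, at 0.06 (5th highest) and FIT2, a cell wall protein that binds siderophores, at -0.25 (13th highest). Of 16 iron genes tested, 12 lay above the library-group mean in VMA21, against 2153 of 4439 over all genes. Their median was 0.24 (-0.01 over all genes), and 2 lay above by at least 2-fold (0.293% of all genes did). TMT1, a methyltransferase, was high too (1.40). LPX1, a peroxisomal lipase (-1.38, lowest of 321), PGC1, a phospholipase (-1.52), PNS1 (-1.91) and YGK1 (-2.07) were low.

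The library labelled MON1 differed from its library group at few genes, 2 of which lay far out. Besides GNP1 (library-group difference -2.99), CHA1, the serine and threonine deaminase gene, was at -2.03, the lowest of 328, and the next lowest was the library labelled GNP1 at -1.22. AGP1, a broad amino acid permease, was at 1.31, the 6th highest. The other high genes were COM2 (0.87, 4th highest), TPO2 (1.22, 16th) and STP4 (1.37, 27th). TDA1 was low (-1.56), and ARG5,6 as given above.

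Phosphate genes were high in the library labelled VPS24, some of them the highest of all strains. VTC1, VTC2, VTC3 and VTC4 encode the complex that stores phosphate as polyphosphate at the vacuole, and PHO81 encodes the inhibitor that switches the pathway on. In the library labelled VPS24, VTC3 was at 3.25, VTC4 at 1.78 and PHO81 at 2.73, each the highest of all strains with a value, VTC1 at 2.05 (2nd) and VTC2 at 1.44 (4th). In the other 7 libraries of the class VTC3 ran from -0.61 to 0.02, VTC4 from -1.13 to -0.20 and PHO81 from -0.58 to 0.60, with no overlap. The strains next to it for VTC4 were those labelled PHO80 (1.71), a repressor of this pathway, and MSN5 (1.12). Among the endosome to Golgi deletions, VPS29 was the 3rd highest for PHO81 (1.48) and the 6th highest for VTC3 (2.00), and VPS51 was at 1.30 for VTC3. Of 18 phosphate genes 8 were tested, and 8 lay above the library-group mean in the library labelled VPS24, against 2393 of 4421 over all genes. By at least 2-fold, 6 of them did, against 2.33% of all genes. PHO3, an acid phosphatase, was the lowest of 328 (-2.37).

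The promoters of VTC1 and VTC4 are shown for the letters CACGTG, bound by the phosphate activator Pho4, and that of MET14 because it holds the same letters, which the sulfur regulator Cbf1 also binds. VTC1 is read on the plus strand of chrV:302556-302705, VTC4 on the minus strand of chrX:413500-413649 and MET14 on the minus strand of chrXI:439486-439635, in the same window and with matches in capitals.
VTC1: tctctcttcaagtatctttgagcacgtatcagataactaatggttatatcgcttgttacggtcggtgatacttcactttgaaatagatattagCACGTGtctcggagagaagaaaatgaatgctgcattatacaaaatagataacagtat
VTC4: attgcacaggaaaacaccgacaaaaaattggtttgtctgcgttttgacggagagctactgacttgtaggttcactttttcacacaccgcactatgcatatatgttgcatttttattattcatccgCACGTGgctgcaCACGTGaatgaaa
MET14: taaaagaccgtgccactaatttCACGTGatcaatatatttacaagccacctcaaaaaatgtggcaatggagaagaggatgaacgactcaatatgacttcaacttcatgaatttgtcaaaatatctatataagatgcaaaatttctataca
The letters stand in 130 of 6001 windows (2.17%). The windows of VTC2, VTC3 and PHO81 do not hold them.

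Genes expressed in a-type cells were low in the same library, and in some endosome to Golgi deletions. AGA2, an agglutinin subunit, was at -2.71, the lowest of 328, MFA2, an a-factor gene, at -1.19 (3rd lowest), BAR1, the protease that degrades alpha-factor, at -1.55 (3rd), MFA1 at -1.87 (6th) and STE2, the alpha-factor receptor, at -1.04 (8th). STE6, the a-factor exporter, was at -1.04, the 40th lowest of 327. Of 7 a-cell markers 6 were tested; 5 of the 6 lay at least 2-fold below the library group, against 2.9% of all genes, and 0 did in the other 7 libraries. The endosome to Golgi deletion VPS53 was lower still at 5 of the 6, all but AGA2, with MFA1 at -3.13, MFA2 at -2.22, STE2 at -2.36, STE6 at -2.51, BAR1 at -2.01 and AGA2 at -2.68. VPS51 was between -1.86 and -0.96 for these 6 genes and PEP8 between -1.77 and -0.94. The deleted gene was not clearly low in the libraries labelled VPS53, VPS51 and PEP8, as given below. The 4 alpha-cell markers did not pass the filter on missing values. HO, the mating-type endonuclease, was at -3.57, the lowest of 327, and YGP1 at -2.83, the second lowest of 328.

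**Figure D4:**
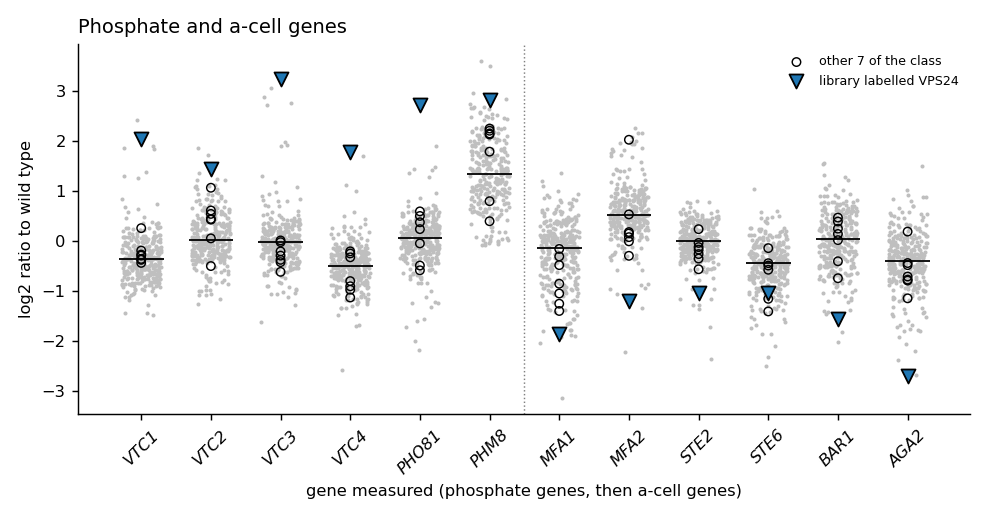
Log2 ratio to wild type (vertical axis) of 6 phosphate genes and 6 a-cell genes (horizontal axis). Blue triangles are the library labelled VPS24, open circles the other 7 of the class, grey points the other deletions and black lines their medians. The triangle is at the top for VTC3, VTC4 and PHO81 and at the bottom for AGA2.

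Against the 6 endosome to Golgi deletions the 8 strains had 0 of 4499 genes called (limma; 0%; 3.00% had an unadjusted p under 0.05), and 0 with library groups as a term (4.02%). Both counts were again 0 (3.20% and 4.33%) without the libraries labelled MON1 and VPS24. Recycling returns sorting receptors and membrane proteins from endosomes to the Golgi. CAR2 was at -0.42 in VPS29, -1.06 in VPS53, -1.89 in PEP8, 0.36 in RCY1, -1.08 in VPS51 and -0.79 in TLG2, so that RCY1 lay level with VPS27. RCY1 was also at 0.76 for CAR1 and 1.05 for DUR1,2. The other endosome to Golgi deletions ran from -0.57 to 0.16 for CAR1 and from -0.39 to 0.37 for DUR1,2. The difference between classes was 0.85 ± 0.37 for CAR2, -0.90 ± 0.27 for MMP1 and -0.48 ± 0.25 for LEU1. It was -0.07 ± 0.29 for CAR1 and 0.33 ± 0.30 for DUR1,2 (SE, limma adjusted p = 0.998 for each of these genes). PEP8 and RCY1 carry a chromosome shift of 0.87 (chromosome IV) and 0.88 (chromosome XIV), and VPS51 was not low in its own library (-0.92, against a library-group median of -0.72). VPS53 was at -0.40 and PEP8 at 0.12 in their own libraries, more than 0.5 below their library-group medians of 0.22 and 0.72. Both values lay close to the medians of all other strains (-0.26 and 0.24), so the check does not settle those deletions.

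Likeness between the 8 profiles followed their library groups. Those groups were drawn from the values of these same genes, so higher r within a group was built in and is not a separate result. Across 2142 genes centred on gene means, r within the class ran from -0.46 to 0.65 over 28 pairs, with a median of 0.51 for the 9 pairs that share a library group and -0.04 for the 19 that do not. Around library-group means the median over 28 pairs was 0.04 (-0.20 to 0.31), against -0.00 for 49141 pairs of other deletions. Without the libraries labelled MON1 and VPS24, 15 pairs remained, with medians of 0.01 around gene means and 0.08 around library-group means. The highest r was 0.31 between VPS8 and VAM7, which share a library group, then 0.28 between VPS8 and VPS27 and 0.20 between VPS9 and VPS27. These r values are across genes, which are not independent replicates. VPS8 was most like MTC5 (0.45) and YAF9 (0.42), VPS27 most like YAF9 (0.35), and VPS38 most like SWI5 (0.61), which is in its library group. VPS24 had no strain above 0.21.

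**Figure D5:**
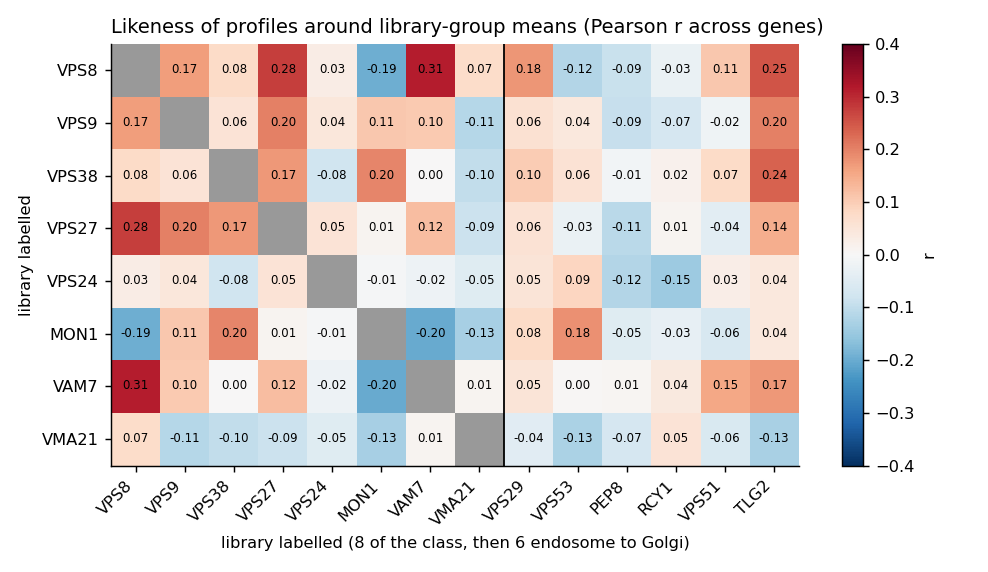
Pearson r (colour and printed value) between profiles over 2142 genes around library-group means, for the 8 class libraries (rows) against each other and against the 6 endosome to Golgi libraries (columns). The highest value within the class is 0.31 for VPS8 and VAM7, beside 0.28 for VPS8 and VPS27 and 0.25 for VPS8 and TLG2.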

How the data were processed

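PolyA RNA of 328 strains was sequenced, per the labels, after extraction in 96 well plates. The authors deposited log2 ratios to the wild type strain in tables of 255 strains (6701 rows) and 73 strains (6698 rows); VPS27 alone of the class is in the second. Bowtie is named by the submitters' processing notes; no source used here gives its version, the build or the scaling. The base was taken as 2 because shifted chromosomes reach 0.88, above the 0.693 of a doubling in natural logarithms. Rows of the tables were joined by position (r of gene means 0.979; at most 0.0463 at other offsets), and 51 rows without a name were left out.

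Testing was limited to 4499 genes measured in 80% or more of the strains, 4420 of them matched to the R64 annotation. Groups were compared with limma 3.58.1 (R 4.3.3; Benjamini-Hochberg, threshold 0.05), response sizes by a two-sided permutation test (scipy 1.17.1). Library groups came from a Gaussian mixture on 4 principal components (scikit-learn 1.9.0, 10 starts). By the Bayesian information criterion, where lower is better, 5 groups scored 6768 and 4 groups 6847. The library-group differences use 4 groups, and 5 were run as an alternative. Members, lists and the rule for named genes were chosen with earlier results of these data known. The rule named the 10 smallest p-values where fewer than 10 genes passed, up to 4 called genes per list, and for each strain the 4 highest and 4 lowest genes by the smaller of their differences from all other deletions and from the library group, without genes within 5 open reading frames of a deleted gene. Genes of arginine, branched-chain, phosphate, zinc, iron and vacuolar function beyond that rule, and library checks, were chosen after their values were seen.

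The fit was tested on simulated data, with known shifts added to 8 random other deletions over 4499 genes. It found 45% of shifts of 0.5 and 96% of shifts of 1, with 9 false of 150 calls. With library groups as a term it found 65% and 98%, with 28 false of 191, and LEU1 was called only with that term. The simulation was 1 random draw with the same shift in all 8 strains. The class strains differ from each other, so these rates may not hold for the class. Alternatives were 4 or 5 library groups as a term, centring, other filters on missing values, another reference, trended variances, the deposited table as a term, and leaving out strains. The result of 1 gene is not reported here.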

Additional observations from a re-analysis of the deposited data

Results flagged for a closer look

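Among 68 genes looked at over the 8 libraries, 14 had 1 library that stood apart from the other 7 by Dixon's criterion (95% critical value 0.526 for 8 values); chance alone flags about 1 in 20 groups, and the genes were chosen after their values were seen. The library labelled VPS24 stood apart for VTC1 (2.05, the others -0.43 to 0.26), VTC3 (3.25, the others -0.61 to 0.02), VTC4 (1.78, the others -1.13 to -0.20) and PHO81 (2.73, the others -0.58 to 0.60). It also stood apart for DEF1 (-3.11, the others -1.19 to 0.47), HO (-3.57, the others -1.84 to -0.97) and AGA2 (-2.71, the others -1.14 to 0.19). All are log2 ratios to wild type.

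The library labelled MON1 stood apart for GNP1 (-2.60, the others -0.43 to 0.66), CHA1 (-2.03, the others 0.22 to 0.85) and AGP1 (1.31, the others -0.90 to 0.10). VMA21 stood apart for ARG7 (0.63, the others -0.69 to -0.11) and MET16, an enzyme of sulfate assimilation (0.82, the others -0.72 to -0.06). VPS38 stood apart for ZRT1 (5.88, the others 0.09 to 2.57) and for PRC1, carboxypeptidase Y of the vacuole (-0.42, the others 0.22 to 0.68). These are ratios set across library groups, and VPS38 is the only class strain of its group: its library-group difference is 2.53 for ZRT1 but -0.06 for PRC1.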

How the results depend on the processing

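The count of genes called against all other deletions was 0. It was 1 (LEU1) with 4 or with 5 library groups as a term, but 0 with 4 groups and each strain centred on its median (LEU1 -0.63, limma adjusted p = 0.0584). Leaving out 1 class strain at a time gave 0 to 1 genes, and with 4 library groups as a term, a setting chosen after seeing the data, 0 to 4 (1 without VPS27, 2 without VPS24, 4 without VMA21). Against the endosome to Golgi deletions it was 1 (NEJ1) with 5 library groups, and 0 to 1 on leaving out 1 strain with 4 groups (NEJ1 without VPS38, STE4 without VPS9). The difference in response size was 0.00759, and -0.0126 to 0.0266 on leaving out 1 strain. The cause of these changes was not tested.

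The 10 named genes kept the direction of their class difference in every setting run, and passed the threshold in 10 of those values. Of the differences in single libraries, 2 moved by more than the SD of the library group when set against all other deletions, DEF1 in VPS24 (-2.95) and GSY2 in VPS38 (2.28). No paired analysis was possible because the strains share no replicate numbers from the labels. Depth is unknown and 1 library stands for each strain, so single-strain values have no replicate error.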
